A study of Mus musculus with 42 samples.

Results

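Cdkn1a and 8 related genes that govern entry into the cell cycle were examined in 4 hypothalamic nuclei of fed and fasted mice. The set holds 9 of the 37907 genes in the expression table, found by matching Ensembl IDs to the symbols Cdkn1a, Cdkn1b, Cdkn2c, Cdkn2d, Ccnd1, Ccnd2, Ccnd3, Trp53 and Mdm2. Cdkn1a was chosen by its RPKM values, which were higher in fasted than in fed mice in several of these nuclei, so its difference between the states is described here and carries no test. The other 8 were listed by name, with no threshold on their values. Of the 9 genes, 8 passed a filter on low values, and Cdkn2c did not.

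RNA-seq was carried out on laser-captured arcuate nucleus (ARC), ventromedial hypothalamus (VMH), dorsomedial hypothalamus (DMH) and paraventricular nucleus (PVN). All mice were adult wild-type C57/BL6 males, and every nucleus was taken either from mice with free access to food (fed) or from mice fasted for 24 hours (fasted). The 42 libraries comprised 10 of the ARC (5 fed, 5 fasted), 12 of the VMH (6 and 6), 9 of the DMH (5 and 4) and 11 of the PVN (6 and 5). Values are RPKM, that is, reads scaled to exon length and library size, so levels may be compared between genes. Estimated depth was 4.56 M reads on average and ranged from 1.33 to 13.2 M reads. It is a library size inferred from the RPKM values, not the number of reads sequenced, for which the study reports a higher average. In the DMH, fasted libraries (4.77 to 13.2 M reads) were deeper than fed libraries (2.94 to 5.04 M reads). A nucleus is a mixture of cells, so fewer cells of a type and less RNA per cell cannot be told apart.

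The dissected nuclei carried their own markers. Summed RPKM of Agrp, Npy and Pomc was 836 to 2380 in ARC libraries and at most 56.6 elsewhere, and that of Oxt, Avp and Sim1 was 4459 to 8501 in PVN libraries and at most 167 elsewhere. Nr5a1 and Fezf1 summed to 65.1 to 165 RPKM in VMH libraries against at most 9.57 elsewhere, and Ppp1r17 and Npvf to 111 to 197 RPKM in DMH libraries against at most 69.6. This last sum was 13.6 to 30.5 RPKM in fed and 35.2 to 69.6 RPKM in fasted PVN libraries. Ppp1r17 was called higher with fasting in the PVN (limma adjusted p under 0.1), where 0.0715% of all genes were called. Its part in the PVN results was not tested. Among all genes, 0.0238% (DMH) to 0.131% (VMH) were called with fasting (limma adjusted p under 0.1), so few calls were likely among markers of cell types. Of 172 tests of 43 markers of neurons, glia, vessels and blood, 0 were higher and 1 was lower with fasting. That marker was the astrocyte water channel Aqp4 in the VMH, which changed by -0.94 log2 units (limma adjusted p = 0.0477, SE 0.19), and its part in the VMH results was not tested. This call was lost with the VMH fitted alone (limma adjusted p = 0.369), with a replicate block (limma adjusted p = 0.262) and without VMH-Fed library 1 (limma adjusted p = 0.114).

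Cyclin-dependent kinases drive a cell from rest into division, and D-type cyclins activate the kinases that act first, by releasing E2F factors from the retinoblastoma protein. Inhibitors of the Cip/Kip family (p21, encoded by Cdkn1a, and p27, encoded by Cdkn1b) bind cyclin-kinase complexes, whereas inhibitors of the INK4 family (encoded by Cdkn2c and Cdkn2d) bind the kinases that partner with D-type cyclins. The transcription factor p53, encoded by Trp53, induces Cdkn1a and also Mdm2, whose product marks p53 for degradation. Most hypothalamic neurons are postmitotic, and these genes are also transcribed in resting cells.

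Cdkn1a (ENSMUSG00000023067) lies at chr17:29090976-29100727 on the plus strand of GRCm38, where GENCODE annotates 5 transcripts that begin at several start sites. Sequence upstream of the RefSeq start sites (GRCm38.p6) is shown for Cdkn1a because it is the gene of the 9 whose level differed most between fed and fasted mice, and for Cdkn1b as its closest relative in the set. Each window is 247 bases, ends before the first annotated exon base and runs 5′ to 3′ on the plus strand. Capitals mark GC boxes (GGGCGG), the sequence bound by Sp1-type factors. The windows are chr17:29090729-29090975 and chr17:29093519-29093765 for Cdkn1a and chr6:134920151-134920397 for Cdkn1b.
Cdkn1a upstream start: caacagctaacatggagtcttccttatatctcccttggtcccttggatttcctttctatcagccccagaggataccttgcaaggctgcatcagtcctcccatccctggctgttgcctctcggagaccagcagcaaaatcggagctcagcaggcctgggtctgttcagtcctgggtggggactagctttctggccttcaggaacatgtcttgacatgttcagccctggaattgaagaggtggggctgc
Cdkn1a downstream start: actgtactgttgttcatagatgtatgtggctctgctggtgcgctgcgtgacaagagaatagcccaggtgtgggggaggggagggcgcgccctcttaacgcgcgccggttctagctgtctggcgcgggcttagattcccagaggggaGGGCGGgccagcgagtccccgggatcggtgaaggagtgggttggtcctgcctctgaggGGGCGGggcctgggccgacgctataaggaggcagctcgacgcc
Cdkn1b: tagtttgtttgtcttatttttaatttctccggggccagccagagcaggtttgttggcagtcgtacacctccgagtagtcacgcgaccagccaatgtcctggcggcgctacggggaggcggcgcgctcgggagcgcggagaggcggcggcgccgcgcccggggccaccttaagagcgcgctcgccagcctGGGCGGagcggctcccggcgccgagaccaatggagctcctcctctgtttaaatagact
Both strands were searched for the GC box, the TATA box (TATAAA), the E-box (CACGTG), a FoxO core (TGTTTAC) and a glucocorticoid receptor core (AGAACA). The upstream window of Cdkn1a held none of these letters, and sequences bound by p53 were not searched for in any window. The downstream window held 2 GC boxes, whose first bases lay 101 and 43 bases from its end, and the Cdkn1b window held 1, at 58 bases from its end. Over 32851 windows of the same length in all genes, 32.3% held a GC box, 12.3% a TATA box, 5.95% an E-box, 3.13% the FoxO core and 15.9% the glucocorticoid receptor core, so a GC box is common in such windows. Of the 10 windows matched to members other than Ccnd1 and Ccnd2, 1 held the glucocorticoid receptor core (Cdkn2c) and 2 held the FoxO core (Ccnd3 and Mdm2).

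The first question was how the level of Cdkn1a differed between fed and fasted mice in each nucleus. Cdkn1a was higher in the fasted group in all 4 nuclei, from 2.72-fold in the DMH to 4.22-fold in the PVN on the RPKM scale. In the ARC it was at 2.90, 7.95, 1.57, 2.22 and 6.12 RPKM in the 5 fed libraries and at 12.4, 20.9, 18.1, 21.9 and 11.6 RPKM in the 5 fasted ones. Every fasted ARC library was above every fed one. The ARC means were 4.15 ± 2.75 RPKM (SD, n = 5) in fed and 16.98 ± 4.78 RPKM (n = 5) in fasted mice.

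In the VMH, Cdkn1a ranged from 0.474 to 9.94 RPKM with a median of 3.23 RPKM in 6 fed libraries, and from 7.77 to 25.6 RPKM with a median of 9.45 RPKM in 6 fasted libraries. The groups overlapped, since 3 of 6 fasted VMH libraries lay below the highest fed one, but all 6 were above the fed mean of 3.99 RPKM. The lowest fed value, in VMH-Fed library 4, rested on about 2.53 reads, close to the 0.308 RPKM that a gene of this length shows with no reads. In the DMH it was at 5.98, 9.81, 7.38, 8.16 and 8.71 RPKM in fed libraries and at 26.7, 17.5, 21.4 and 21.4 RPKM in fasted libraries. These DMH groups did not overlap and varied little, with means of 8.01 ± 1.44 RPKM (n = 5) and 21.8 ± 3.78 RPKM (n = 4).

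The PVN showed both the highest values and the widest spread among fasted mice. Fed PVN libraries ranged from 4.60 to 8.86 RPKM (median 6.08 RPKM, n = 6). Fasted PVN libraries were at 49.0, 25.3, 31.3, 17.3 and 13.7 RPKM, all above the fed range. On the log2(RPKM + 1) scale fasted exceeded fed libraries by 1.92 (ARC, SE 0.39), 1.58 (VMH, SE 0.36), 1.34 (DMH, SE 0.42) and 1.81 (PVN, SE 0.38). Over all 33579 genes tested the median difference was 0 in each nucleus, and the share of genes with no overlap between groups was 0.742% for the ARC, 0.277% for the VMH, 1.15% for the DMH and 0.402% for the PVN. Cdkn1a was chosen for this difference, so nothing is read from these shares.

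**Figure D1:**
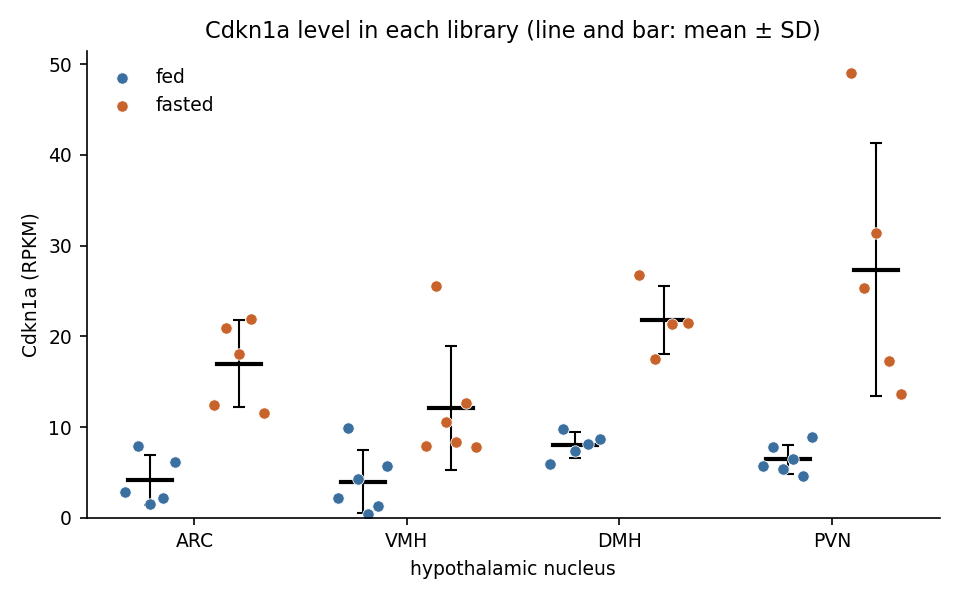
Cdkn1a level (RPKM, linear axis from 0) in each of 42 libraries by nucleus, with fed libraries in blue and fasted libraries in orange and the mean ± SD of each group in black. Fed and fasted points are separate in the ARC, DMH and PVN and overlap in the VMH, and the highest point is the fasted PVN library at 49.0 RPKM.

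The same libraries can be described set by set, which adds no independent evidence because these values chose Cdkn1a. The libraries fell into 3 sets, inferred from recurring lowest values and not named in the labels, whose mean log2 levels are equal for each gene in the table as deposited. In the 11 combinations of nucleus and set that held both states, Cdkn1a was higher in fasted mice in 11, by 1.14 to 2.71 on the log2 scale. With depth as a covariate the DMH difference was 1.62. The next ranges cover the alternative settings, the differences within sets and the difference of group medians. The Cdkn1a difference ranged from 1.71 to 2.29 (ARC), 1.30 to 1.99 (VMH), 1.24 to 1.62 (DMH) and 1.14 to 2.71 (PVN). Both PVN bounds are differences within a set, and the upper ARC bound is the difference of medians. Without 1 library the PVN difference ranged from 1.58 to 2.02. The sign of the difference did not change in any of these values, which come from the same libraries.

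Some reads of Cdkn1a could belong elsewhere. The reads carry no strand, and 7.68% of its exon length overlaps AC167363.2 on the opposite strand. In addition, 8.49% of its 50-base stretches recur in transcripts of other genes. Summed markers of 8 cell types gave overlapping ranges of fed and fasted libraries in 32 of 32 combinations of cell type and nucleus, with a ratio of medians, fasted to fed, from 0.740 (tanycyte and ependymal markers in the PVN) to 1.22 (astrocyte markers in the DMH). Astrocyte markers summed to 283 to 358 RPKM in fed and 346 to 413 RPKM in fasted DMH libraries, and their part in the DMH difference was not tested. The median change of the 6 single astrocyte markers in the DMH was -0.07 log2 units, so not all of them shared the rise of the sum. In the PVN, microglia markers had medians of 34.2 RPKM in fed and 27.3 RPKM in fasted libraries, oligodendrocyte markers summed to 83.1 to 130 RPKM in fed and 80.7 to 116 RPKM in fasted libraries, and endothelial markers to 56.0 to 73.1 and 53.4 to 90.2 RPKM.

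Cdkn1b, the other Cip/Kip inhibitor, did not pass the test in any nucleus. It was at 5.18, 7.75, 9.997, 8.04 and 7.51 RPKM in fed ARC libraries and at 19.1, 7.19, 7.004, 9.71 and 14.3 RPKM in fasted ones, so 2 fasted libraries were above all fed libraries and the rest lay among them. The ARC change was 0.45 log2 units (limma adjusted p = 0.647, SE 0.21), with a two-sided exact permutation p of 0.206. Within the 3 sets the ARC change was 1.699, -0.28 and 0.55. Changes in the VMH, DMH and PVN were -0.12, -0.02 and 0.23, with limma adjusted p = 1 in each.

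Set side by side in the same library, Cdkn1a was above Cdkn1b in RPKM in 7 of 22 fed libraries and in 18 of 20 fasted libraries. The median ratio of Cdkn1a to Cdkn1b was 0.784 over fed and 2.07 over fasted libraries. In the PVN it was below 1 in all 6 fed libraries (0.457 to 0.881) and above 1 in all 5 fasted libraries (1.21 to 6.45). These ratios restate the difference in Cdkn1a and are not a separate result.

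The INK4 inhibitors lay far apart in level. Cdkn2d, at chr9:21288410-21291407, was the most abundant member, with a mean of 39.8 RPKM and a range of 18.9 to 68.9 RPKM over all libraries. Its change with fasting was -0.43 for the ARC (limma adjusted p = 0.744) and -0.35 for the VMH (limma adjusted p = 0.700). For the DMH and PVN it was -0.06 and 0.04. Cdkn2c, at chr4:109660876-109667189, sat at its no-read value in 22 of 42 libraries and reached at most 1.82 RPKM, in DMH-Fed library 1. It was not tested. Its fed and fasted means were 0.549 and 0.431 RPKM in the ARC and 0.421 and 0.717 RPKM in the VMH. They were 0.770 and 0.443 RPKM in the DMH and 0.548 and 0.539 RPKM in the PVN. These means rest on at most 16.5 estimated reads in any library, so no difference is read from them.

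D-type cyclins were measured at intermediate levels. Ccnd1 (chr7:144929931-144939925) was lower in every fasted ARC library than in any fed one: fed libraries were at 17.2, 11.6, 12.9, 11.1 and 13.3 RPKM and fasted libraries at 8.70, 6.60, 9.68, 10.7 and 8.37 RPKM. The ARC means were 13.2 ± 2.43 RPKM (fed, SD, n = 5) and 8.82 ± 1.55 RPKM (fasted, n = 5), and the change was -0.53 log2 units with an SE of 0.31. It did not pass the threshold over all genes (limma adjusted p = 0.770), while the two-sided exact permutation p of 0.00794 is the smallest that 5 against 5 libraries allow. That permutation p is unadjusted, is the lowest of 28 and restates the lack of overlap, which 0.742% of all genes showed in the ARC. Within the 3 sets the ARC change was -0.91, -0.55 and -0.32.

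Ccnd1 stood apart in 2 PVN libraries. It was at 39.9 RPKM in PVN-Fed library 1, where the other 5 were at 10.1 to 13.1 RPKM, and at 56.4 RPKM in PVN-Fast library 3, where the other 4 were at 10.55 to 11.1 RPKM. The PVN means were 16.5 ± 11.5 and 19.9 ± 20.4 RPKM with these libraries and 11.8 ± 1.17 and 10.8 ± 0.238 RPKM without them. The PVN change was 0.06 with them and -0.11 without them, and neither passed the threshold. Ccnd1 is uncertain because 23.4% of its exon length overlaps LTO1 on the opposite strand. LTO1 was at 2.35 and 3.58 RPKM in these 2 libraries, within the 1.93 to 5.93 RPKM of the other PVN libraries.

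Ccnd2 (chr6:127125162-127152193) and Ccnd3 (chr17:47505051-47599691) varied widely within groups. Ccnd2 ranged from 3.06 to 5.51 RPKM in fed and from 1.29 to 4.32 RPKM in fasted ARC libraries, and its changes with fasting ran from -0.36 in the PVN to 0.28 in the VMH. Ccnd3 ranged from 2.85 to 12.9 RPKM in fed and from 1.81 to 12.4 RPKM in fasted ARC libraries, so the coefficient of variation was 71.4% and 62.9% in these groups. The widest interval in the set was that of Ccnd3 in the DMH, where the change was 0.42 and the 95% interval ran from -0.51 to 1.34.

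**Figure D2:**
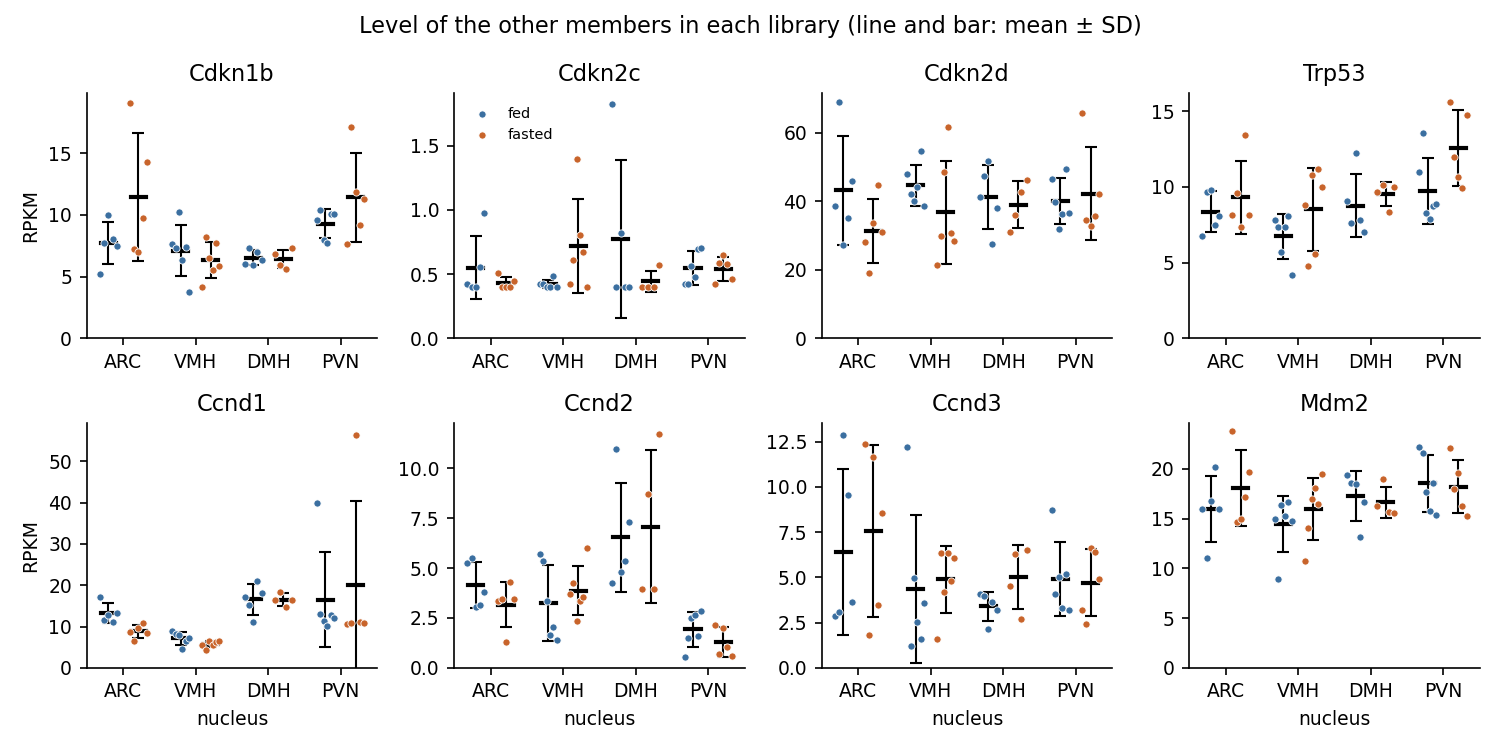
Level (RPKM, linear axes from 0) of the other 8 genes in each library by nucleus, with fed libraries in blue, fasted libraries in orange and mean ± SD in black (the lower SD bar of fasted PVN Ccnd1 stops at the axis). Fed and fasted points overlap in each panel and nucleus except Ccnd1 in the ARC, and the single high points of Ccnd1 in the fed and fasted PVN are at 39.9 and 56.4 RPKM.

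Trp53 and Mdm2 were next compared, since p53 is the best-known inducer of Cdkn1a. Trp53 (chr11:69580359-69591873) was at 10.9, 13.6, 8.30, 7.89, 8.71 and 8.83 RPKM in fed PVN libraries and at 15.6, 11.96, 10.6, 9.89 and 14.7 RPKM in fasted PVN libraries. The fasted values were all above the fed mean of 9.71 RPKM, and the groups overlapped. Its change was 0.34 in the PVN (SE 0.18, limma adjusted p = 0.957), 0.27 in the VMH (SE 0.17, limma adjusted p = 0.723) and 0.13 in both the ARC and the DMH. Mdm2 (chr10:117688875-117710758), which encodes the ligase that degrades p53 and is itself induced by p53, ranged from 8.91 to 23.9 RPKM over all libraries, and its changes were 0.17, 0.14, -0.04 and -0.02 in the ARC, VMH, DMH and PVN. The 95% intervals of these Mdm2 changes reached from -0.38 to 0.49 over the 4 nuclei.

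Over the 7 tested members other than Cdkn1a and the 4 nuclei, 0 of 28 changes with fasting passed the threshold (limma, lowest adjusted p = 0.647), and 1 had an unadjusted p under 0.05 (Cdkn1b in the ARC). Among all genes, 0.0566% (ARC), 0.131% (VMH), 0.0238% (DMH) and 0.0715% (PVN) passed, and 6.70% of tests in the 4 nuclei together had an unadjusted p under 0.05. Of the 28 changes, 1 showed no overlap between groups (Ccnd1 in the ARC), against 0.643% over all genes and nuclei. The 28 changes lay between -0.53 and 0.45, and their 95% intervals between -1.16 and 1.34. These intervals leave room for changes in either direction, so the data do not show that the genes were unaffected. No difference in response between nuclei was found for these 7 members (interaction, limma adjusted p = 1 for each, 0 with an unadjusted p under 0.05), and 0.00596% of all genes passed that test.

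**Figure D3:**
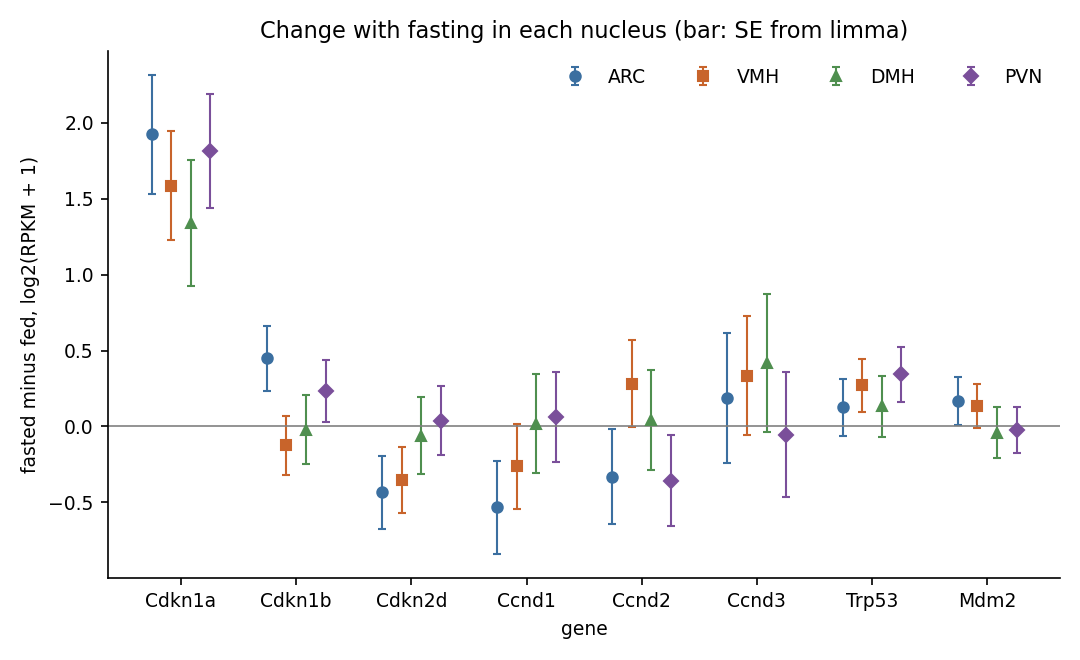
Difference of fasted from fed libraries on the log2(RPKM + 1) scale for the 8 genes that passed the filter, with 1 point per nucleus and bars of 1 SE from limma. The 4 points of Cdkn1a lie between 1.34 and 1.92, and those of the other 7 genes between -0.53 and 0.45.

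The level of each member was then compared between nuclei within one nutritional state. Cdkn1a was left out of these tests, because its fed and fasted levels chose it. In fed mice 2 of the 7 other tested members differed between the nuclei (F test over 4 groups, limma adjusted p under 0.1), as did 12.4% of all genes. They were Ccnd2 (adjusted p = 0.00953) and Ccnd1 (adjusted p = 0.0279). In fasted mice 3 of 7 differed, against 11.9% of all genes, namely Ccnd2 (limma adjusted p = 0.00166), Ccnd1 (adjusted p = 0.00244) and Cdkn1b (adjusted p = 0.0104). The nuclei were dissected from shared mice, which these tests do not take into account.

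Over the 6 pairs of nuclei, 4 of 42 comparisons of these members passed the threshold in fed mice (5.56% over all genes) and 7 of 42 in fasted mice (5.42%). The pairs named next passed for 5.24% (VMH and DMH), 9.84% (VMH and PVN) and 3.42% (DMH and PVN) of all genes in fed mice, and for 8.91% (ARC and VMH), 3.94% (VMH and DMH), 9.24% (VMH and PVN) and 3% (DMH and PVN) in fasted mice.

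Ccnd2 was lowest in the PVN and highest in the DMH in both states. Fed PVN libraries were at 0.567 to 2.85 RPKM (median 2.05 RPKM, n = 6) and fed DMH libraries at 4.26, 10.96, 4.80, 5.36 and 7.30 RPKM, with no overlap. The difference of DMH from PVN was 1.35 (SE 0.30, limma adjusted p = 0.00554) in fed and 1.75 (SE 0.33, limma adjusted p = 0.00106) in fasted mice. Between them, the fed means of the ARC (4.15 RPKM) and VMH (3.24 RPKM) did not pass the threshold against each other.

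Ccnd1 was lowest in the VMH in both states. Fed VMH libraries were at 4.52 to 8.93 RPKM (median 7.53 RPKM, n = 6), below all fed libraries of the other nuclei, and fasted VMH libraries at 4.33 to 6.47 RPKM. The difference of VMH from DMH was -1.10 (SE 0.29, limma adjusted p = 0.0224) in fed and -1.38 (SE 0.31, limma adjusted p = 0.00632) in fasted mice. Without the 2 PVN libraries in which Ccnd1 stood apart, the F test gave adjusted p = 1.18e-06 in fed and 7.67e-08 in fasted mice (limma). These libraries were left out after seeing their Ccnd1 values, so the lower p-values add no support. Without VMH-Fed library 4, the adjusted p in fed mice was 0.106, so that call was lost.

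Cdkn1b was higher in the fasted ARC (11.5 ± 5.18 RPKM, n = 5) and fasted PVN (11.4 ± 3.62 RPKM, n = 5) than in the fasted VMH (6.34 ± 1.49 RPKM, n = 6), by 0.69 (SE 0.20, limma adjusted p = 0.0283) and 0.74 (SE 0.20, limma adjusted p = 0.0175). The same test in fed mice gave limma adjusted p = 0.465 over the 4 nuclei. Whether the nuclei differ more in fasted than in fed mice is the interaction, which Cdkn1b did not pass.

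For Cdkn1a, the 4 fed means ran, from low to high, in the order VMH (3.99 ± 3.51 RPKM), ARC (4.15 ± 2.75 RPKM), PVN (6.48 ± 1.596 RPKM) and DMH (8.01 ± 1.44 RPKM), and the fasted means in the order VMH (12.1 ± 6.85 RPKM), ARC (16.98 ± 4.78 RPKM), DMH (21.8 ± 3.78 RPKM) and PVN (27.3 ± 13.9 RPKM). These levels are a description, with no test. The ranges of the libraries overlapped between all neighbours in both orders.

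Trp53 passed the test of VMH against PVN alone, being lower in the VMH by 0.48 in fed and 0.55 in fasted mice (limma adjusted p = 0.0987 and 0.0627), and did not pass the F test in either state.

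The wider pathway was examined through gene lists chosen with earlier results of these data known. Among all genes 0.0238% (DMH) to 0.131% (VMH) passed with fasting, so a count of 0 was likely in lists of this size. Of 20 tested targets of p53, 0 passed the threshold in any nucleus. Their median change was 0.14 (ARC), 0.03 (VMH), -0.01 (DMH) and 0.01 (PVN), beside 0 over all genes. The most abundant were Zmat3, an RNA-binding regulator of splicing, which changed by 0.13, -0.37, 0.01 and 0.14 in the ARC, VMH, DMH and PVN, and Ccng1, which encodes cyclin G1 and changed by -0.10, -0.24, -0.22 and -0.19. Fas, a death receptor gene, and Plk2, a polo-like kinase gene, are named after their values were seen, for the lowest adjusted p of the list (limma, 0.464 for both in the ARC). Fas changed by 0.87 (ARC), 0.61 (VMH), 0.45 (DMH) and 0.38 (PVN), and Plk2 by 0.74, -0.19, 0.10 and -0.23 in the same order. Over the list and the 4 nuclei the changes lay between -0.70 and 0.87. Pmaip1 and Eda2r, the remaining genes of that list, did not pass the filter.

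The p53 regulators (9 tested) gave the same count of 0. Trp53bp1, a DNA damage adaptor, changed by -0.28 in the VMH (limma adjusted p = 0.353, the lowest of that list), and the acetyltransferase gene Ep300 by 0.25 in the ARC (limma adjusted p = 0.647). Among partners of the cyclins, 9 cyclin and kinase genes were tested and 0 passed. Cdk4, a kinase bound by D-type cyclins and by INK4 inhibitors, changed by 0.55 in the ARC (limma adjusted p = 0.647), and Cdk7, of the kinase complex that activates others, by 0.16 at most. The 10 Rb and E2F genes also gave 0, with Tfdp1, a dimer partner of E2F, at 0.26 in the ARC and Rbl2, a relative of Rb1, at -0.18 in the VMH.

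Markers of dividing cells were low. Of 13 tested proliferation genes 0 passed, and Pcna, the sliding clamp of DNA polymerase, and Mcm4, of the replicative helicase, were the most abundant at means of 6.55 and 4.48 RPKM. Changes of Pcna were 0.24 (ARC), -0.11 (VMH), 0.20 (DMH) and 0.04 (PVN). Mki67, Top2a and Bub1 did not pass the filter. Of the remaining inhibitors, Cdkn1c and Cdkn2b were tested and did not pass. Cdkn1c changed by 1.002 in the VMH (SE 0.39, limma adjusted p = 0.483), from 1.11 ± 0.583 to 4.30 ± 4.90 RPKM (SD, n = 6 and 6), and 30.7% of its exon length overlaps another gene. Over these 6 lists, 17 of 252 tests had an unadjusted p under 0.05, a share close to the 6.70% over all genes, and the lowest limma adjusted p was 0.353.

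Glucocorticoid receptor and FoxO factors act in the fasted state and are also known to induce Cdkn1a, so genes they induce were listed as well. Of 18 tested, Bcl6, a transcriptional repressor, rose in the VMH by 0.97 (SE 0.18, limma adjusted p = 0.0290) and in the PVN by 0.86 (SE 0.19, limma adjusted p = 0.0922), where 0.131% and 0.0715% of all genes passed. With each nucleus fitted alone both calls were lost (limma adjusted p = 0.369 and 0.636), as they were with a replicate block (limma adjusted p = 0.104 and 0.216). Without 1 library the VMH call was lost in 0 of 42 fits and the PVN call in 15 of 42, with limma adjusted p up to 0.261 without PVN-Fast library 2. It changed by 0.47 in the ARC and 0.97 in the DMH without passing the threshold. The other 17 genes did not pass in any nucleus. The median change of the list was 0.40 (ARC), 0.17 (VMH), 0.33 (DMH) and 0.54 (PVN), beside 0 over all genes, and 17 of 18 genes had a positive change in the ARC, DMH and PVN and 11 in the VMH. Of 72 tests, 25 had an unadjusted p under 0.05, beside 6.70% over all genes. The list was drawn up with its earlier results known and is not independent evidence of a direction.

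**Figure D4:**
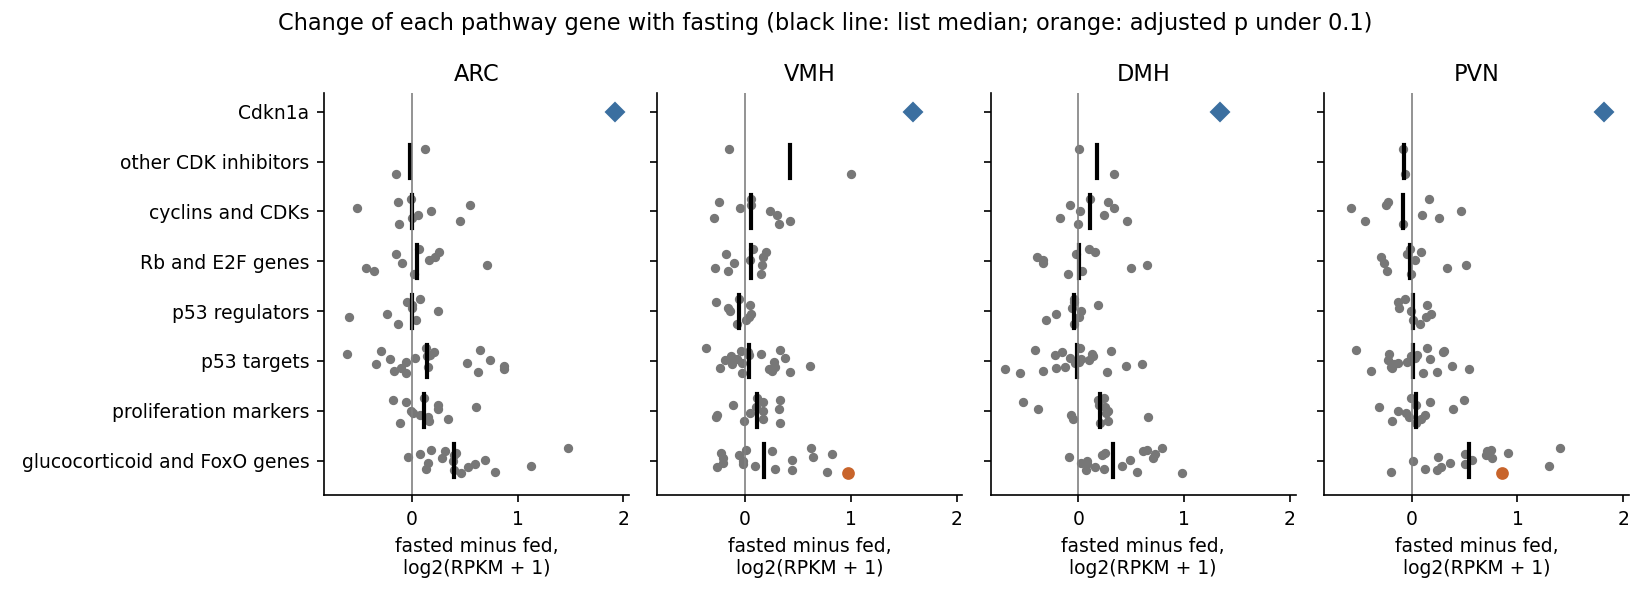
Difference of fasted from fed libraries on the log2(RPKM + 1) scale for each tested gene of 7 lists, by nucleus, with the median of each list as a black line, genes past the threshold in orange and Cdkn1a as a blue diamond. The medians of the p53 targets lie between -0.01 and 0.14, and the 2 orange points are Bcl6 at 0.97 in the VMH and 0.86 in the PVN.

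The genes whose pattern was most like that of Cdkn1a were found over 42 libraries, after the mean of each nucleus was subtracted. Among 27713 genes the 5 most alike were Fam107a (Pearson r = 0.80, Spearman rho = 0.82), Bcl6 (0.74 and 0.76), Zbtb16 (0.74 and 0.75), Hif3a (0.73 and 0.76) and Dnajc10 (0.68 and 0.66). Libraries from one mouse or of one depth share variation, so these values are a description. Because the nutritional state was not subtracted, a gene that differs between fed and fasted mice scores high. Fam107a, whose product binds actin, differed by 0.86 (ARC, SE 0.12), 0.41 (VMH, SE 0.11), 0.80 (DMH, SE 0.13) and 0.81 (PVN, SE 0.12). Hif3a, which encodes a hypoxia-inducible factor subunit, differed by 1.05, 1.16, 1.16 and 1.41 in the same nuclei.

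**Figure D5:**
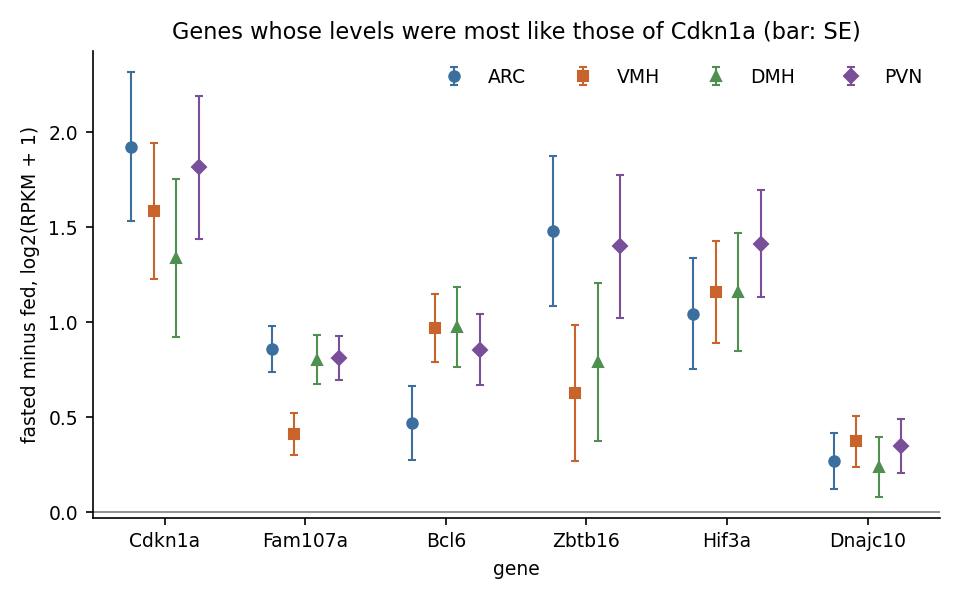
Difference of fasted from fed libraries on the log2(RPKM + 1) scale for Cdkn1a and the 5 genes most like it over 42 libraries, with 1 point per nucleus and bars of 1 SE from limma. All points lie above 0, and the Cdkn1a points between 1.34 and 1.92.

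With the mean of each nucleus and state subtracted, so that only variation among libraries of a group was left, the most alike genes were different. They were Setd1b (r = 0.64), Timm17b (0.63), Bfsp2 (0.62), Fam19a2 (0.61) and Trmt1 (0.60). In that comparison Trp53 had r = -0.14 and Mdm2 r = -0.36 with Cdkn1a, and with only the nucleus mean subtracted r was 0.24 and -0.07. Cdkn1b had r = 0.15 in the first comparison and -0.08 in the second.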

How the data were processed

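The authors mapped single-end reads to GRCm38 with TopHat and analysed them with edgeR and limma, removing outlier samples beforehand, and they deposited RPKM values for 37907 Ensembl gene IDs in 42 libraries (submitters' processing notes: CASAVA 1.7, TopHat2 2.0.11, Cufflinks 2.2.1). The table held 0 values equal to 0. Recurring lowest values per gene, taken as no reads, placed the libraries in 3 sets of 10, 16 and 16. The study describes 3 batches of capture and library preparation, and membership was inferred here. For 37907 of 37907 genes the 3 sets had the same mean log2 RPKM (within 0.00001), so set means had been equalised in the deposited values, although groups are unevenly spread over the sets (the first holds no fasted DMH library). This can shift group differences, and the p-values here do not count it. The deposited RPKM thus include about 4.99 added reads in the mean library (1.45 to 14.5), and depth was estimated from exon length, which matched within 1% for 75.4% of 20374 genes. Fold changes of genes near the no-read value are understated.

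Values were transformed to log2(RPKM + 1), and genes with RPKM of at least 1 in at least 4 libraries were kept (33579). Because values were RPKM, limma 3.58.1 in R 4.3.3 took the place of a count model. A mean was fitted per group over all 42 libraries, with eBayes trend, two-sided tests and Benjamini-Hochberg adjustment over all genes kept, and results with an adjusted p below 0.1 count as past the threshold. The 95% intervals are not adjusted for the number of comparisons. Tested on simulated data of 33579 genes, the fit was checked to recover inserted changes. Single values also had a two-sided exact permutation test (scipy 1.17.1). Libraries were grouped by nucleus and nutritional state as labelled. The study describes replicates of a nucleus as separate mice and takes all 4 nuclei from each brain; which libraries share a mouse is not given in the sources used here. Symbols and positions came from GENCODE M21 (35965 IDs matched), and upstream sequences from RefSeq.

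All 9 members are named. Of each list, genes past the threshold are named, or otherwise the 2 with the highest mean RPKM, and of likeness the 5 highest correlations; Pmaip1, Eda2r, Mki67, Top2a and Bub1 are named because they did not pass the filter. The members, lists and tests were chosen with earlier results of these data known. Alternatives covered the pseudocount, the filter, scaling, array weights, a depth covariate, a replicate block, each nucleus alone and leaving out each library. Same-numbered fed and fasted libraries of a nucleus did not deviate together. Equalised set means can lower such correlations, so this check could not decide whether numbers mark pairs. Numbers were not used as pairs in the main fit.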

Additional observations from a re-analysis of the deposited data

Results flagged for a closer look

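In 10 of 72 groups of libraries 1 library lay far from the rest of its group by Dixon's criterion. Chance would give about 3.6 if values were normal, which RPKM, and Cdkn2c near its no-read value, need not be. No excess is read from this count. The 10 outlying values came from 9 libraries. Cdkn1a was at 25.6 RPKM in VMH-Fast library 2, where the others were at 7.77 to 12.7 RPKM. Ccnd1 was at 39.9 RPKM in PVN-Fed library 1 and at 56.4 RPKM in PVN-Fast library 3. In PVN-Fast library 3 its excess over the highest other PVN library was 2.03 on the log2 scale, the rank 2 of 33579 genes, and in PVN-Fed library 1 it was 1.54, at rank 64. Ccnd3 was also high in PVN-Fed library 1, at 8.74 RPKM against 3.17 to 5.18 RPKM, and in VMH-Fed library 1, at 12.2 RPKM against 1.23 to 4.95 RPKM. Cdkn2d was at 65.7 RPKM in PVN-Fast library 1, where the others were at 32.8 to 42.1 RPKM. Mdm2 was low in VMH-Fed library 2, at 8.91 RPKM against 14.7 to 16.6 RPKM. Cdkn2c was at 0.973 RPKM in ARC-Fed library 5, 0.485 RPKM in VMH-Fed library 5 and 0.569 RPKM in DMH-Fast library 4, where the others of each group were at or near its no-read value.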

How the results depend on the processing

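Cdkn1a was higher in fasted mice in each nucleus under every setting tried, and 0 of 1456 refits of the 7 other members passed the threshold with fasting (limma, lowest adjusted p = 0.260). Counts over all genes were less stable. With each nucleus fitted alone they were 0, 1, 0 and 3 in the ARC, VMH, DMH and PVN, and with array weights 40, 16, 56 and 141. A pseudocount of 0.1 gave 8 and a mean RPKM of at least 3 gave 11 in the ARC. Leaving out PVN-Fed library 1 and PVN-Fast library 3, a setting chosen after seeing the data, gave 27 in the VMH and 12 in the PVN. The interaction count was 1 with a pseudocount of 0.1, 1 with a mean RPKM of at least 3 and 8 with array weights. The cause was not tested. Without 1 library the counts ranged from 6 to 31, 16 to 64, 6 to 89 and 11 to 48 in the 4 nuclei. For the interaction they ranged from 2 to 7. The F test over fed nuclei then gave limma adjusted p from 0.00530 to 0.0376 for Ccnd2 and from 0.000536 to 0.106 for Ccnd1.

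Replicate numbers are shared between the groups. Same-numbered fed and fasted libraries correlated between -0.12 and 0.05 in their deviations, and 2 of 20 did so best with their own number. Because equalised set means can lower these correlations, they do not decide whether numbers mark pairs. With the replicate block the counts over all genes were 3, 0, 5 and 16 and the interaction count was 0. Members other than Cdkn1a gave 0 in each nucleus. A replicate block by state, chosen after seeing the data, gave 3 members that differed between nuclei in fed and 3 in fasted mice. Both of these counts cover Cdkn1a as well, so no support for the other members is read from them.

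Small changes turned sign. With array weights these were Ccnd3 in the ARC (-0.0226) and PVN (0.21), Ccnd1 (-0.0262) and Ccnd2 (-0.13) in the DMH, and Cdkn2d (-0.0374) and Mdm2 (0.00367) in the PVN. Without the 2 PVN libraries they were Ccnd1 (-0.11) and Mdm2 (0.00337) in the PVN. Without 1 library the ranges were -0.0315 to 0.53 for Ccnd3 and -0.0016 to 0.195 for Trp53 in the ARC. In the DMH they were -0.0763 to 0.0310 for Cdkn1b, -0.20 to 0.0407 for Cdkn2d, -0.11 to 0.11 for Ccnd1, -0.22 to 0.24 for Ccnd2 and -0.13 to 0.000993 for Mdm2. In the PVN they were -0.13 to 0.115 for Cdkn2d, -0.39 to 0.34 for Ccnd1, -0.18 to 0.11 for Ccnd3 and -0.0899 to 0.0368 for Mdm2. Cdkn2c rested on at most 16.5 estimated reads in any library and the lowest fed VMH value of Cdkn1a on about 2.53, so counting error limits both.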
